A study of Mus musculus with 24 samples.

Results

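The fibroblast growth factor (FGF) ligands and receptors measured in mouse dorsal root ganglia (DRGs) after sciatic nerve lesion are described here. The members are 10 genes, the ligands *Fgf1*, *Fgf2*, *Fgf3*, *Fgf7*, *Fgf9* and *Fgf13* and the receptors *Fgfr1*, *Fgfr2*, *Fgfr3* and *Fgfr4*, found as every non-control probe whose gene name on the array equals one of these names. They were measured by 25 of the 41174 probes, and are 10 of the 27398 gene names of the array. L4 and L5 DRGs came from adult male C57BL/6J *Nfil3* KO mice, which carry a deletion made by Cre under a human CMV promoter and so not restricted to neurons, and from *Nfil3* +/+ wildtype (WT) littermates. In each genotype there were 4 control samples from the non-injured side, 4 samples at day 2 and 4 at day 5 after transection and coaptation of the sciatic nerve, 24 samples in 6 groups. The study measured gene expression to ask how loss of NFIL3, a transcriptional repressor induced by nerve injury, changes the response of the DRG. The tissue is labelled as DRG neurons, but whole ganglia were used. The time at which control DRGs were taken is not stated, and the labels do not tie control and lesioned DRGs of the same animal.

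Secreted FGFs bind receptor tyrosine kinases on the cell surface together with heparan sulfate, and activated receptors signal through the adaptor FRS2 to the MAP kinase pathway and through phospholipase C gamma. FGF2 is a classical growth factor for neurons and glia that is known to rise in sensory ganglia after nerve injury, FGF1 is abundant in adult sensory and motor neurons, and FGF9 is a secreted ligand made by neurons. FGF13 is different. It belongs to the FGF homologous factors, which stay inside the cell and bind voltage-gated sodium channels and microtubules instead of FGF receptors, and its transcripts differ in their first exon.

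The array measures each gene with 60-base oligonucleotides, and the probes on which the results turn are shown because the *Fgf13* result differs between them and because 2 *Fgfr1* probes overlap. Coordinates are given in mm9, as the array's own annotation has them. The *Fgf3* probe and one of the *Fgf2* probes map to a stretch of the genome longer than the probe itself, 1860 and 47220 bases, and so join 2 exons. For *Fgfr1* the capitals mark the 39 bases that both probes share, with a single difference, G36A, counted from the 5′ end of A_52_P668810.
*Fgf3* A_51_P205028 (chr7:152026667-152028526): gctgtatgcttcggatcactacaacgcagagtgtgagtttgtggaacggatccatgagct
*Fgf2* A_52_P376768 (chr3:37303539-37303598): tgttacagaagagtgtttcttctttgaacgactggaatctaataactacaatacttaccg
*Fgf2* A_51_P399845 (chr3:37247934-37295153): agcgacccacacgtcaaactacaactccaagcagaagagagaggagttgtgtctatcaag
*Fgf13* A_51_P409220 (chrX:56320589-56320648): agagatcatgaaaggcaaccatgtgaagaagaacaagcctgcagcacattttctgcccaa
*Fgf13* A_52_P267243 (chrX:56385064-56385123): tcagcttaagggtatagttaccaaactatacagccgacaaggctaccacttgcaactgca
*Fgf13* A_52_P855632 (chrX:56504021-56504080): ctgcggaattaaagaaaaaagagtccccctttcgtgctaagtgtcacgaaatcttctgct
*Fgfr1* A_52_P668810 (chr8:26684063-26684122): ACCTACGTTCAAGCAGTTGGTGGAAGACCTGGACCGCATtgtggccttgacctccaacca
*Fgfr1* A_51_P109469 (chr8:26684042-26684101): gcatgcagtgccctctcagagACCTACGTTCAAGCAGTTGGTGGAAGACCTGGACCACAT

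All values below are log2 intensities after background correction and quantile normalization, so that a difference of 1 is a 2-fold change, and the brightest probe of a gene stands for it unless another is named. Levels are compared between samples, never between probes. A sample counts as detected when Feature Extraction marked the probe as well above background. Tests are limma tests with p-values adjusted by Benjamini-Hochberg over all 41174 probes, and 0.05 was the threshold. Between 54.5% and 72.3% of all probes were detected per sample, with no saturated spots.

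Some samples stand apart, and the results that rest on them are given with and without them. The lesion check held in every sample, since *Atf3*, a transcription factor induced in injured neurons, lay between 12.94 and 14.10 in the 16 lesioned samples and between 7.25 and 9.98 in the 8 controls. Each array carried 2 samples, and the 4 controls that shared an array with a lesioned sample had the higher *Atf3* values, from 9.04 to 9.98 against 7.25 to 7.69 in the other 4. WT control replicate 4 had the lowest share of detected probes, 54.5%, where the next sample had 61.1%, and the highest *Atf3* value of the controls. The targeted gene *Nfil3* was detected in all 12 WT samples and in 5 of 12 KO samples. Of these 4 were lesioned samples, KO day 2 replicates 1 and 4 with 5.30 and 6.23 and KO day 5 replicates 1 and 3 with 5.81 and 5.66, where lesioned WT samples lay between 10.34 and 11.09. Each of these 4 shared its array with a lesioned WT sample. The other lesioned KO samples shared theirs with a KO sample, and their *Nfil3* values, from 2.82 to 4.14, were not well above background. Whether the array partner accounts for this was not tested. The sample labelled KO control replicate 4, for which another label gives day 5, had an *Nfil3* value of 7.59 where the other KO controls had 2.94, 3.80 and 4.37, against 8.44 to 9.01 in WT controls. Its array partner was KO day 5 replicate 2, with an *Nfil3* value of 3.40, and its own *Atf3* value was 9.66. KO control replicates 2 and 3, with *Nfil3* values of 3.80 and 4.37, shared their arrays with WT controls.

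Of the 10 members 6 passed the lesion test over both genotypes, *Fgf1*, *Fgf2*, *Fgf3*, *Fgf9*, *Fgf13* and *Fgfr1*, on an array where 26.2% of all gene names passed it. *Fgf3* and *Fgf2* rose and the other 4 fell, at day 2 and at day 5 alike. At day 2, where 22.1% of all genes passed, this was 2 members higher (9.48% of all genes) and 4 lower (12.7% of all genes). At day 5, where 23.2% passed, the same 2 were higher (10.2% of all genes) and the same 4 lower (13% of all genes). The median absolute change of the members was 0.44 at day 2 and 0.40 at day 5, beside 0.23 and 0.22 over all genes. The members were chosen with earlier results of these data known, so these comparisons with all genes are a description only. *Fgf7*, *Fgfr2*, *Fgfr3* and *Fgfr4* did not pass here, although *Fgf7* and *Fgfr3* each passed at 1 day in 1 alternative. DRGs are mixed tissue, and in these bulk samples fewer cells of a type and less RNA per cell cannot be told apart.

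**Figure D1:**
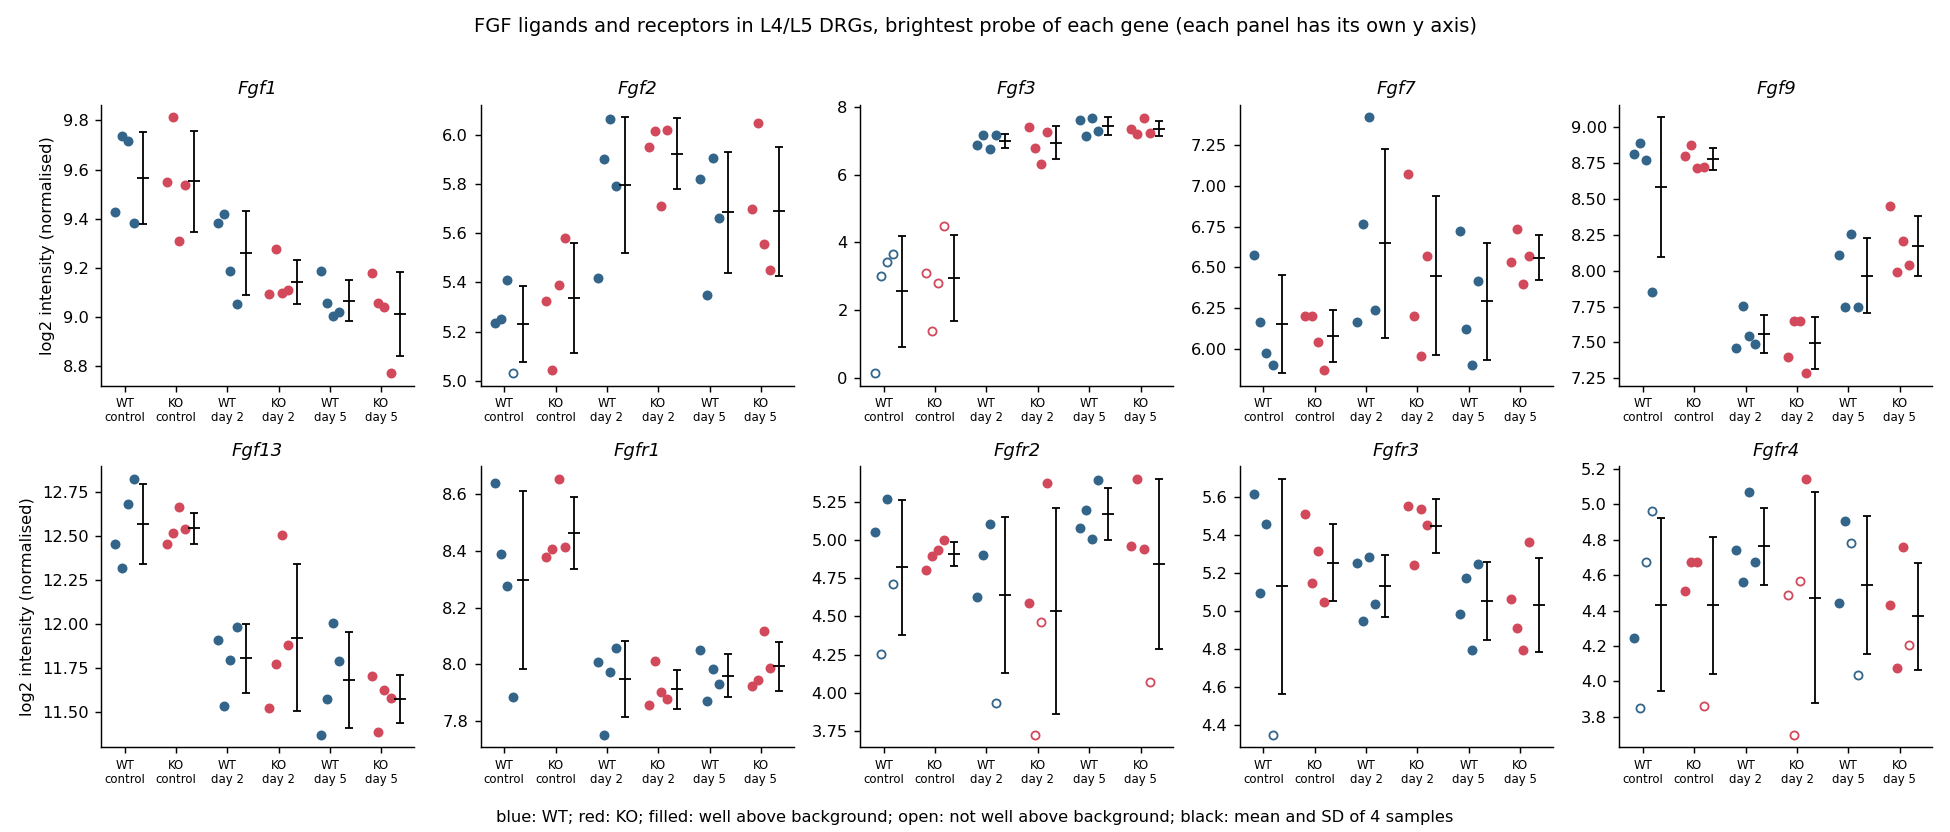
Log2 intensity of the brightest probe of each FGF ligand and receptor in all 24 samples, by genotype and time point (4 samples a group, open circles not well above background, black marks the mean and SD). *Fgf3* was not well above background in any control and lay at 6.32 or above in every lesioned sample, while *Fgf9* fell to between 7.29 and 7.75 at day 2 and lay between 7.74 and 8.45 at day 5.

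*Fgf3*, a secreted ligand known mainly from inner ear and tail development, showed the largest change of the 10 members. In WT mice its log2 intensities were 0.13, 2.99, 3.43 and 3.66 in control, 6.88, 7.16, 6.75 and 7.17 at day 2, and 7.63, 7.14, 7.67 and 7.29 at day 5. In KO mice they were 3.08, 1.38, 2.79 and 4.48 in control, 7.41, 6.78, 6.32 and 7.26 at day 2, and 7.34, 7.20, 7.68 and 7.23 at day 5. None of the 8 controls and all 16 lesioned samples were well above background, with no overlap. With the Edwards background correction the mean over both genotypes was at least 10.6-fold higher at day 2 and at least 14.3-fold higher at day 5. These bounds hold for that correction only, since with normexp the measured log2 changes were 1.38 and 1.67, and the call held. For these bounds each control entered with the larger of its own probe signal and the lowest signal that was well above background in that sample. Measured means were 2.74 for control, 6.97 for day 2 (adjusted p from limma = 4.05e-07) and 7.40 for day 5 (adjusted p = 7.50e-08). By genotype the bounds were 9.11-fold and 12.4-fold in WT mice and 12.4-fold and 16.6-fold in KO mice. The step from day 2 to day 5 was 0.43 (SE 0.43, adjusted p = 0.707). The control values moved with the array partner, ranging from 2.99 to 4.48 where the array also held a lesioned sample and from 0.13 to 3.43 where it did not. With single controls left out the bounds ran from 9.35-fold, without KO control replicate 2, to 11.6-fold at day 2 and from 12.6-fold to 15.7-fold at day 5, highest without KO control replicate 4. Only 1 probe measured *Fgf3*.

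*Fgf2* rose more modestly. Its log2 intensities in control were 5.23, 5.25, 5.41 and 5.03 in WT mice and 5.33, 5.04, 5.39 and 5.58 in KO mice. At day 2 they were 5.42, 5.90, 6.07 and 5.79 in WT mice and 5.95, 6.01, 5.71 and 6.02 in KO mice. At day 5 they were 5.82, 5.35, 5.91 and 5.66 in WT mice and 5.70, 6.05, 5.56 and 5.45 in KO mice. The highest control overlapped the lowest lesioned samples at both days. Over both genotypes the change was 0.57 at day 2 (1.49-fold, 95% confidence interval 0.34 to 0.81, adjusted p = 8.44e-04) and 0.40 at day 5 (1.32-fold, 0.17 to 0.64, adjusted p = 0.012). The second probe, printed above from another part of the transcript, across an exon junction, and spotted 10 times on each array, gave 0.58 and 0.45 (adjusted p = 4.37e-04 and 0.00307). Both probes are dim, with 23 of 24 samples well above background. Without background correction the first probe gave a smaller change, 0.27 at day 2 and 0.19 at day 5, and its call held.

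*Fgf9* fell at both days, and by more at day 2 than at day 5 in this probe. In WT controls its log2 intensities were 8.81, 8.89, 8.77 and 7.85, and in KO controls 8.80, 8.87, 8.72 and 8.73. At day 2 they were 7.46, 7.75, 7.54 and 7.49 in WT mice and 7.40, 7.65, 7.65 and 7.29 in KO mice. At day 5 they were 8.11, 7.75, 8.26 and 7.74 in WT mice and 8.45, 7.99, 8.21 and 8.04 in KO mice. Every day 2 sample lay below every control, whereas at day 5 WT control replicate 4 lay within the range of the lesioned samples. The change was -1.15 at day 2 (2.22-fold lower, SE 0.13, adjusted p = 1.71e-06) and -0.61 at day 5 (1.53-fold lower, SE 0.13, adjusted p = 0.00137). Without WT control replicate 4 it was -1.27 and -0.73. *Fgf9* was the one member that differed between the 2 days, by 0.54 (SE 0.13, adjusted p = 0.0243), where 3.28% of all genes did. This step is not settled, because its call was lost on leaving out WT day 2 replicate 1, WT day 5 replicate 1, WT day 5 replicate 3 or KO day 5 replicate 1 in turn and on averaging the probes of a gene. A second probe fell by 1.15 at day 2 and by 0.81 at day 5 (adjusted p = 5.06e-05 and 0.00134), and its step of 0.34 did not pass (adjusted p = 0.363).

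*Fgf13* fell at both days. In WT mice the log2 intensities of this probe, A_52_P154877 at the 3′ end of the gene (chrX:56315765-56315824), were 12.45, 12.32, 12.68 and 12.82 in control, 11.91, 11.53, 11.79 and 11.98 at day 2, and 11.37, 11.57, 12 and 11.79 at day 5. In KO mice they were 12.45, 12.52, 12.67 and 12.54 in control, 11.52, 11.77, 12.51 and 11.88 at day 2, and 11.71, 11.38, 11.62 and 11.58 at day 5. All day 5 samples lay below all controls, and at day 2 KO replicate 3 alone lay within the control range. The change was -0.69 at day 2 (1.62-fold lower, SE 0.12, adjusted p = 3.36e-04) and -0.93 at day 5 (1.90-fold lower, adjusted p = 1.08e-05).

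The 4 *Fgf13* probes did not move alike. The pair of probes in exons annotated to the same RefSeq transcript as the brightest probe, A_51_P409220 and A_52_P267243, fell at day 5 by 0.86 and 0.71 (adjusted p = 2.78e-04 and 0.00432) and gave -0.43 and -0.44 at day 2, which did not pass (adjusted p = 0.0535 and 0.0818). The fourth, A_52_P855632, lies furthest 5′ on the reverse strand, on which the gene is read, and is not annotated to that RefSeq transcript. It is annotated to 2 Ensembl transcripts, 1 of which A_52_P267243 shares. It was higher after lesion, by 0.42 at day 2 (95% confidence interval 0.16 to 0.68, adjusted p = 0.0192) and by 0.41 at day 5 (0.14 to 0.67, adjusted p = 0.0224). Its log2 intensities were 5.18, 5.33, 5.61 and 4.99 in WT control, 5.21, 5.62, 5.88 and 5.78 at day 2 and 5.43, 5.39, 5.72 and 5.86 at day 5. In KO mice they were 4.81, 5.32, 4.94 and 5.23 in control, 5.90, 5.47, 5.53 and 5.38 at day 2 and 5.57, 5.53, 5.85 and 5.28 at day 5. The rise passed over both genotypes together and in neither genotype alone. In WT mice it was 0.35 at day 2 and 0.33 at day 5 (adjusted p from limma = 0.268 and 0.290). In KO mice it was 0.50 and 0.48 (adjusted p from limma = 0.0791 and 0.0868). The groups overlapped, and the signal was dim, with 23 of 24 samples well above background.

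The difference in change between probes was tested within samples, as the value of the other probe minus that of the brightest probe, in lesioned against control samples. This test was added after the values had been seen, and was run for all 15 other probes of the members at both days, 30 exact permutation tests over 12870 splits of 8 against 8 samples. A_52_P855632 differed from the brightest *Fgf13* probe by 1.12 at day 2 and by 1.33 at day 5 (two-sided exact permutation p = 1.55e-04, the smallest these samples can give, adjusted p = 0.00233 for both). All 8 lesioned samples lay above all 8 controls at each day. The call held in all 29 alternatives of normalization, foreground or left-out sample, with differences between 0.83 and 1.22 at day 2 and between 1.07 and 1.39 at day 5. None of the other tests passed, and for *Fgf13* A_51_P409220 and A_52_P267243 the differences were 0.27 and 0.26 at day 2. The single-probe rise of A_52_P855632 is less certain than the difference. The test takes only the difference between a dim probe and a bright one that fell, so it cannot tell a rise from a smaller fall. Without background correction it was 0.14 at day 2 and 0.17 at day 5. At day 5 its call was lost without WT control replicate 4 (0.36, adjusted p = 0.0513), and likewise on leaving out WT day 5 replicate 4, KO control replicate 1 or KO day 5 replicate 3.

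**Figure D2:**
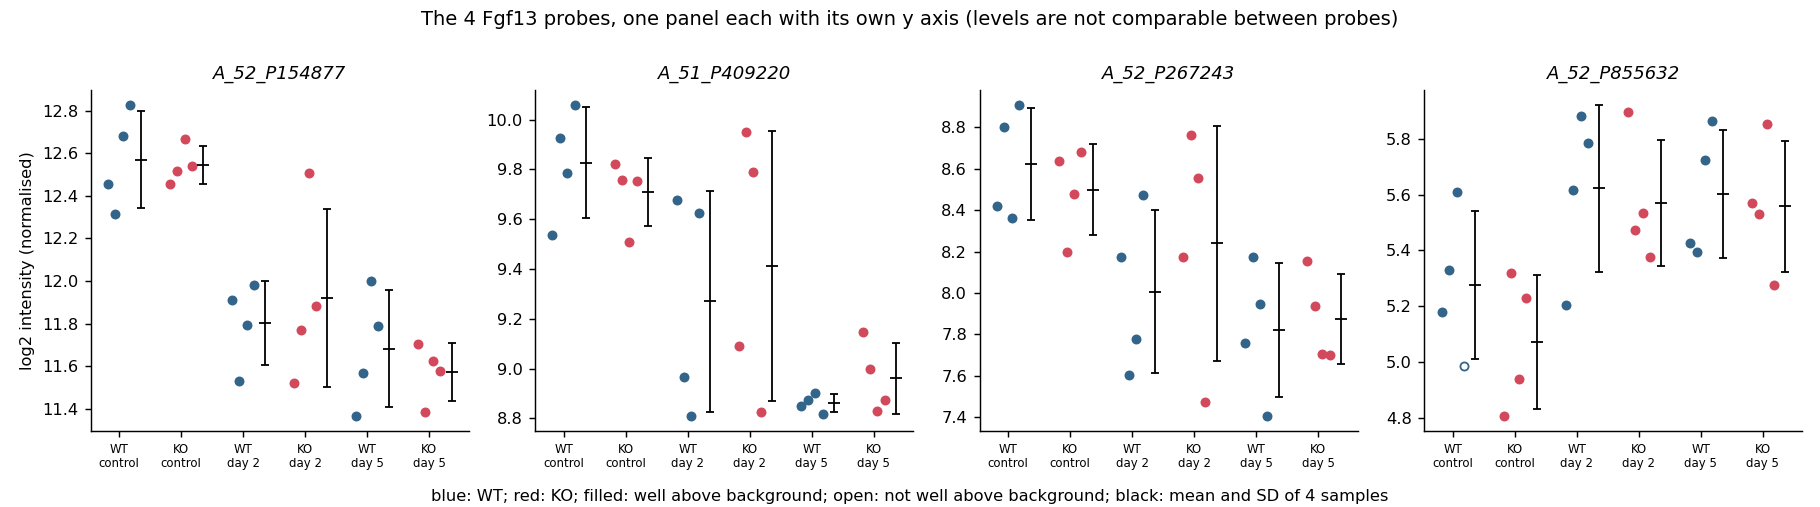
Log2 intensity of the 4 *Fgf13* probes in all 24 samples, by genotype and time point (open circles not well above background, black marks the mean and SD of 4 samples). The 3 probes on the left fell after lesion, by 0.93, 0.86 and 0.71 at day 5, while the dim probe on the right rose by 0.41.

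At both days several changes differed by the array partner, and *Fgf13* is given first. A_51_P409220 lay between 8.81 and 9.09 in the 4 day 2 samples that shared their array with another day 2 sample, and between 9.62 and 9.95 in the 4 that shared it with a sample of another time point. The corresponding controls lay between 9.51 and 9.79 and between 9.75 and 10.06. The day 2 change of this probe was thus -0.72 among samples with a partner of the same time point and -0.13 among the others, and at day 5 it was -0.72 and -1.0. For the brightest probe the values were -0.90 and -0.49 at day 2 and -0.91 and -0.95 at day 5. A_52_P855632 gave 0.43 and 0.41 at day 2, and 0.38 and 0.43 at day 5, so its rise was as large in either set. It was less even by slide, with 0.65, 0.36 and 0.19 over all lesioned against all control samples. At day 2 *Fgfr1* gave -0.63 with a partner of the same time point and -0.27 with another, its overlapping probe A_51_P109469 -0.67 and -0.29, and *Fgf2* 0.71 and 0.44. At day 5 the second *Fgf1* probe gave -0.17 and -0.76 in the same order, and *Fgf13* A_52_P267243 -0.47 and -0.95. *Fgfr1* A_52_P136162 gave -0.26 and -0.57 at day 5, and *Fgfr3* -0.48 and 0.17. The brightest probes of *Fgf1* and *Fgfr1* differed less at day 5, with -0.46 and -0.58, and with -0.47 and -0.33. Whether the partner accounts for these differences was not tested.

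*Fgf1* fell at both days. Its log2 intensities were 9.43, 9.74, 9.71 and 9.38 in WT control and 9.55, 9.81, 9.31 and 9.54 in KO control samples. At day 2 they were 9.38, 9.42, 9.19 and 9.05 in WT mice and 9.09, 9.28, 9.10 and 9.11 in KO mice. At day 5 they were 9.19, 9.06, 9.0 and 9.02 in WT mice and 9.18, 9.06, 9.04 and 8.77 in KO mice. Day 2 overlapped with control, and day 5 did not. The change was -0.36 at day 2 (1.28-fold lower, SE 0.08, adjusted p = 0.00395) and -0.52 at day 5 (1.43-fold lower, adjusted p = 9.44e-05). The second *Fgf1* probe gave -0.11 at day 2, which did not pass (adjusted p = 0.633), and -0.46 at day 5 (adjusted p = 0.0144), and with both probes averaged the day 2 call of the gene was lost (-0.23, adjusted p = 0.0829). Of the 10 members, day 2 and control samples did not overlap for *Fgf3* and *Fgf9*, where this held for 6.54% of all genes, and day 5 and control samples did not overlap for *Fgf1*, *Fgf3* and *Fgf13*, where it held for 11.7%.

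Among the receptors *Fgfr1*, which encodes a receptor for FGF1 and FGF2 among others, was the one that passed. Its log2 intensities were 8.64, 8.39, 8.28 and 7.88 in WT control and 8.38, 8.41, 8.65 and 8.41 in KO control samples. At day 2 they were 8.01, 7.75, 7.97 and 8.06 in WT mice and 7.86, 8.01, 7.90 and 7.88 in KO mice. At day 5 they were 8.05, 7.87, 7.99 and 7.93 in WT mice and 7.92, 7.95, 8.12 and 7.99 in KO mice. With the exception of WT control replicate 4, which lay among the lesioned samples, every control was above every lesioned sample. The change was -0.45 at day 2 (1.37-fold lower, adjusted p = 5.18e-04) and -0.40 at day 5 (1.32-fold lower, adjusted p = 0.00116), with a standard error of 0.08. Without WT control replicate 4 it was -0.52 and -0.47. All 4 *Fgfr1* probes were lower at day 5, by 0.40 to 0.45, and passed. At day 2 the overlapping probe A_51_P109469 fell by 0.48 (adjusted p = 3.36e-04), while the other 2, which lie in exons further 5′, gave -0.16 and -0.20 and did not pass (adjusted p = 0.355 and 0.0840). Their differences from the brightest probe did not pass the test within samples either (adjusted p = 0.303 and 0.329).

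*Fgfr2*, *Fgfr3* and *Fgfr4* were dim. Their brightest probes were well above background in 18, 23 and 14 of 24 samples, and *Fgfr2* and *Fgfr3* each had a further probe that was detected in none. The changes at day 2 were -0.28 for *Fgfr2*, 0.10 for *Fgfr3* and 0.19 for *Fgfr4*, and at day 5 they were 0.14, -0.15 and 0.02. The 95% confidence intervals were -0.74 to 0.19, -0.20 to 0.40 and -0.23 to 0.61 at day 2, and -0.32 to 0.60, -0.45 to 0.15 and -0.40 to 0.44 at day 5. In this fit, with the Edwards correction, a change of more than 2-fold lay outside each of these intervals. For signals this dim the measured change can depend on the background correction, so the intervals do not bound the change of the transcript. With the probes of a gene averaged *Fgfr3* passed at day 5 (-0.44, adjusted p = 0.0494), where its brightest probe gave -0.15. That average takes in A_51_P237613, the *Fgfr3* probe detected in none of the 24 samples. Its day 5 change differed from that of the brightest probe by -0.68. For A_51_P322906, detected in 13 samples, the difference was -0.19. The larger averaged change thus rests in part on a signal not well above background. *Fgf7*, a ligand made by mesenchymal cells that signals to epithelia through FGFR2, was well above background in all 24 samples. Its control values ran from 5.87 to 6.57, its day 2 values from 5.96 to 7.42 and its day 5 values from 5.90 to 6.74. The change was 0.43 at day 2 (95% confidence interval 0.05 to 0.81, adjusted p = 0.103) and 0.31 at day 5 (adjusted p = 0.278). Without KO day 2 replicate 3 the day 2 change passed (0.52, adjusted p = 0.0471). At day 2 it was 0.76 among samples whose array partner was of the same time point and 0.11 among the others, and whether the partner accounts for it was not tested.

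**Figure D3:**
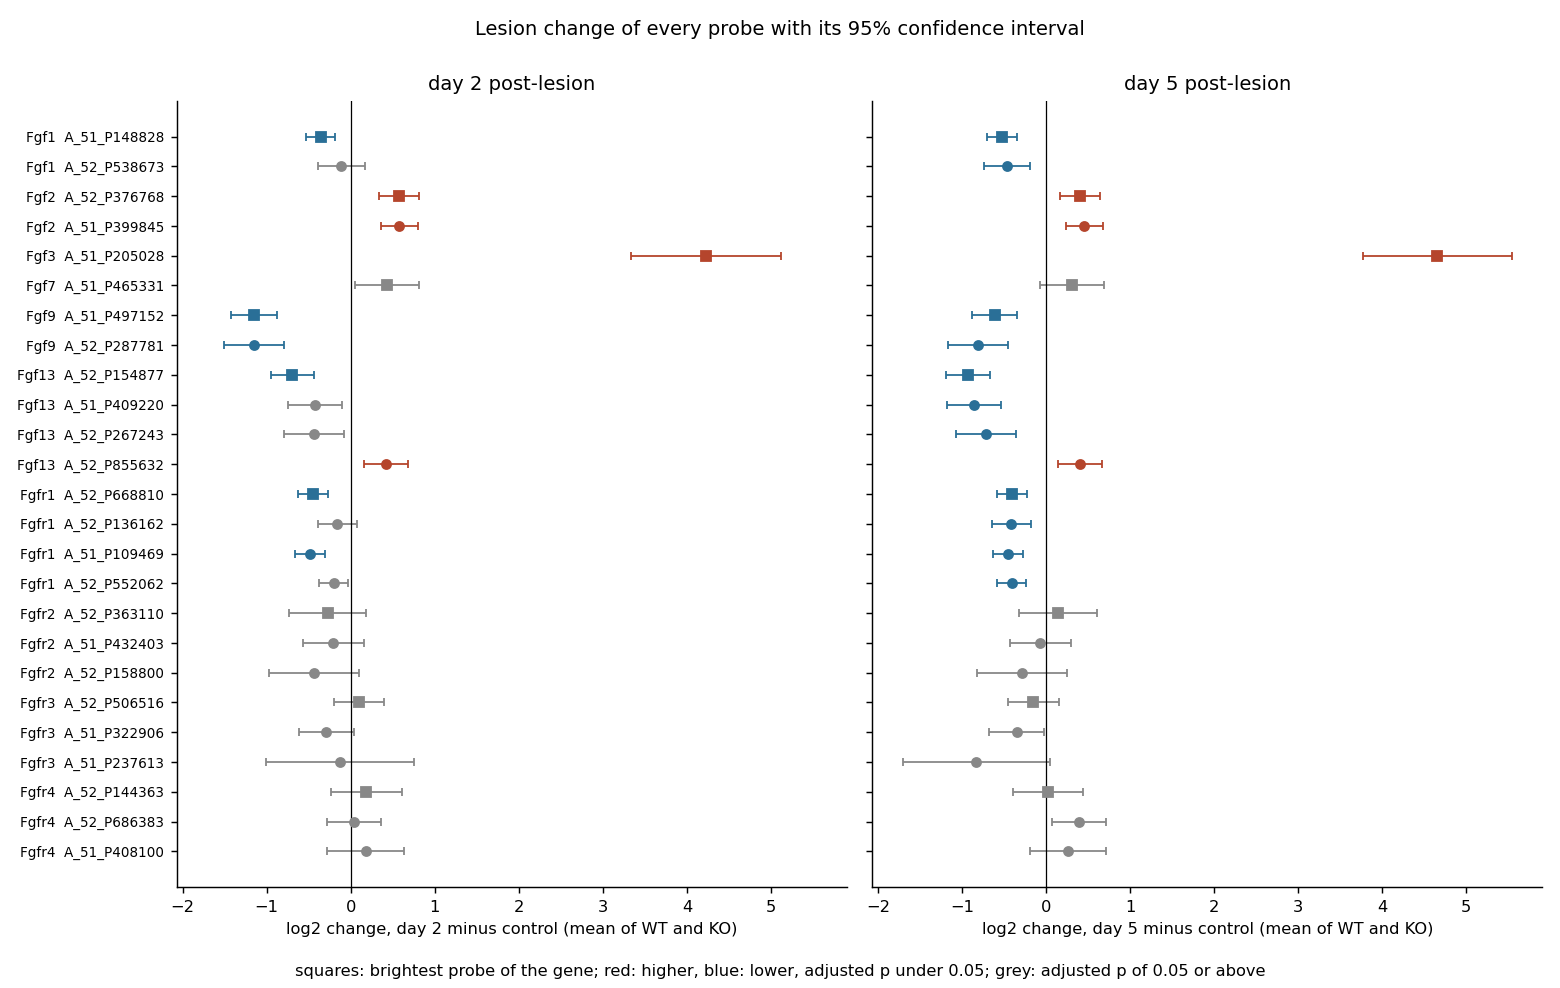
Log2 change at day 2 (left) and day 5 (right) against control for all 25 probes, as the mean of WT and KO mice with its 95% confidence interval. Squares are the brightest probe of each gene, red and blue mark probes with an adjusted p under 0.05. *Fgf13* A_52_P855632 rose by 0.42 at day 2 and 0.41 at day 5 while the brightest *Fgf13* probe fell by 0.69 and 0.93, and the dim probes of *Fgfr2*, *Fgfr3* and *Fgfr4* also scatter within a gene.

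The 6 members that passed kept the direction of their change within each of the 3 slides, within each dye and within each kind of array partner. Over all lesioned against all control samples *Fgf9* gave -0.64, -1.12 and -0.90 on the 3 slides, *Fgf13* -0.68, -0.76 and -0.94, *Fgf2* 0.42, 0.47 and 0.51, *Fgf1* -0.33, -0.56 and -0.44, and *Fgfr1* -0.56, -0.43 and -0.30. For *Fgf3* the measured changes were 5.33, 3.35 and 4.33, which depend on control values under the background. The groups were not spread evenly over the slides. Slide 1 held no WT day 2 sample, slide 2 no WT day 5 sample and slide 3 no KO day 5 sample. These slide values pool both days, so slide and time point cannot be told apart in their spread.

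Within the genotypes separately, 4 members passed in WT mice at day 2 (11% of all genes) and 4 at day 5 (13.9%), and in KO mice 6 at day 2 (11.8%) and 5 at day 5 (12.7%). The 6 members had the same direction in both genotypes at both days. Of these 19 calls 11 held in every alternative, namely *Fgf3* throughout, *Fgf9* at day 2 in both genotypes, *Fgf1* and *Fgf13* at day 5 in both genotypes, and *Fgfr1* at day 2 in KO mice. The other 8 were lost in at least 1 alternative. *Fgfr1* in WT mice gave -0.35 at day 2 and -0.34 at day 5 (adjusted p = 0.0694 and 0.0700), and without WT control replicate 4 -0.49 and -0.48 (adjusted p = 0.00379 and 0.00344). Without KO control replicate 4 the KO changes of *Fgf1* and *Fgf13* at day 2 were -0.41 and -0.63 and no longer passed (adjusted p = 0.0569 and 0.0509), and neither did *Fgf9* at day 5 (-0.63, adjusted p = 0.0588).

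No member passed a comparison between the genotypes. So few of all genes passed that this does not show the genotypes to be equal for the members. Some arrays held a KO and a WT sample together, and whether this affects the differences was not tested. KO minus WT was called for 0 of 10 members in control (0% of all genes), at day 2 (0.0146% of all genes) and at day 5 (0.0109%), and the interaction of time and genotype for 0 of 10 (0%). At an unadjusted p by limma under 0.05 the brightest probes of the members gave 0 in each comparison, where the shares of all genes were 1.70% for control, 3.81% for day 2, 2.38% for day 5 and 2.12% for the interaction. *Fgf3* was under the background in all 8 controls, so no difference is given for it there. For the other members the control differences ran from -0.07 for *Fgf7* to 0.20 for *Fgf9*, and without KO control replicate 4 from -0.02 for *Fgf13* to 0.22 for *Fgf9*. They ran at day 2 from -0.29 for *Fgfr4* to 0.32 for *Fgfr3*, and at day 5 from -0.33 for *Fgfr2* to 0.27 for *Fgf7*. For *Fgf9* the difference was -0.07 at day 2 with a 95% confidence interval of -0.45 to 0.32, for *Fgf13* 0.12 (-0.25 to 0.48), for *Fgfr1* -0.04 (-0.28 to 0.21) and for *Fgf1* -0.12 (-0.37 to 0.13). For *Fgf3* it was -0.05 at day 2 (-1.31 to 1.21) and -0.07 at day 5 (-1.33 to 1.19). The wide intervals of *Fgf3* rest on the control samples under the background, since the limma fit shares 1 variance over all groups. Of all 25 probes the second *Fgf2* probe alone fell under that limit, at day 5, with a KO minus WT difference of 0.34 (95% confidence interval 0.03 to 0.66), and it did not pass after adjustment.

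**Figure D4:**
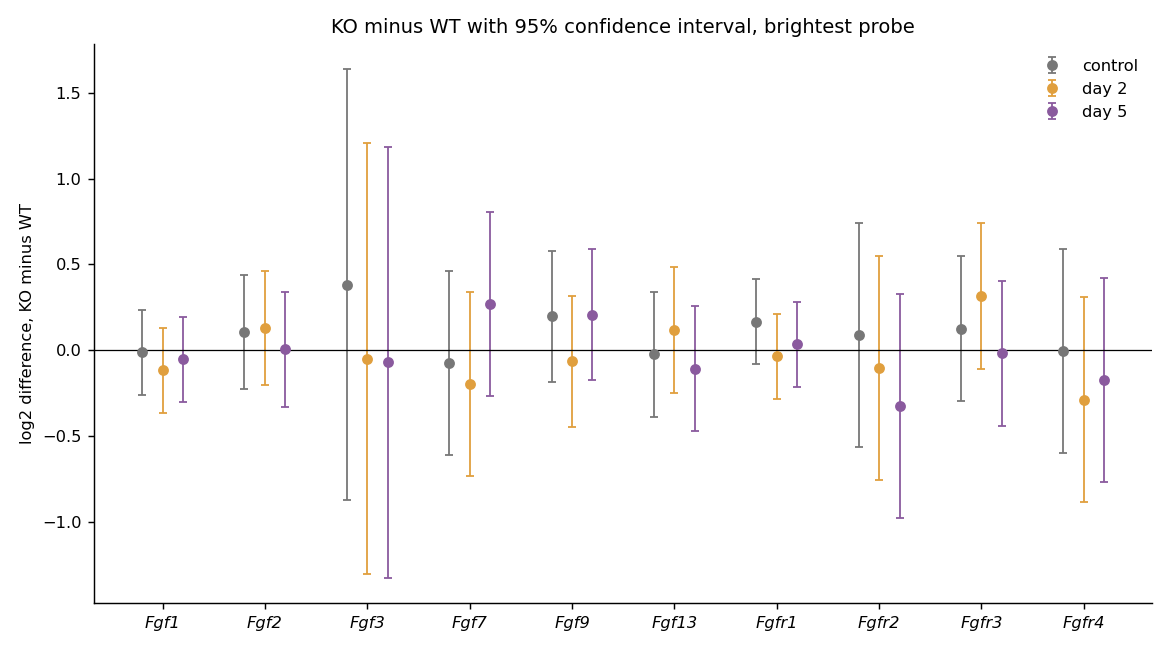
KO minus WT log2 difference of the brightest probe of each member in control, at day 2 and at day 5, with its 95% confidence interval from the limma fit over 24 samples. All 30 intervals include 0, and those of *Fgf3* are the widest, its control interval resting on samples under the background.

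The genes whose pattern over the 24 samples was most like that of a member were sought for *Fgf13*, *Fgf9* and *Fgf1*, the members detected in all samples with the largest changes, among 14485 genes detected in all samples. For *Fgf9* they were *Zfpm2*, *Csmd3* and *Ptprd*, each with a Pearson r of 0.95. *Zfpm2*, a transcriptional cofactor, gave -0.70 at day 2 and -0.37 at day 5. For *Fgf13* they were *Myo1e*, *Atg4c* and *Rab4a* (r = 0.96, 0.96 and 0.95), and for *Fgf1* *Pcp4l1*, *Zfyve28* and *Mid1ip1* (r = 0.92, 0.89 and 0.89). These correlations over samples that share the lesion contrast and the arrays are a description only.

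Other genes of FGF signaling were taken from a list of 61 genes, chosen with earlier results of these data known. Of these, 60 were found on the array by name. The lesion test passed for 31 of the 60, where 26.2% of all genes passed. At day 2 11 were higher and 16 lower, where 9.48% and 12.7% of all genes were, and at day 5 12 were higher and 14 lower, where 10.2% and 13% of all genes were. The median change was -0.13 at day 2 and -0.03 at day 5, beside -0.02 and -0.03 over all genes. None passed a comparison between the genotypes or the interaction test.

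Among the other ligands 5 of 15 passed. *Fgf5*, a secreted ligand, fell by 1.07 at day 2 and by 1.19 at day 5 (adjusted p = 6.58e-06 and 2.11e-06, with 1 missing value left out at day 5). Of the FGF homologous factors beside *Fgf13*, 2 passed, *Fgf12* falling by 0.78 and 1.02 (adjusted p = 5.40e-04 and 2.48e-05) and *Fgf11* rising by 0.45 and 0.98 (adjusted p = 0.00888 and 3.31e-06), while *Fgf14* gave -0.05 and 0.05 and did not pass (adjusted p = 0.806 and 0.825). Of the receptor-like proteins and co-receptors 5 of 6 passed. *Flrt3*, a transmembrane protein that binds FGF receptors and also acts in axon guidance, rose by 3.51 and 3.44 (adjusted p = 1.67e-14 and 8.27e-15), and *Kl*, the klotho co-receptor of endocrine FGFs, fell by 0.91 and 0.79 (adjusted p = 0.00731 and 0.0177) with 13 of 24 samples well above background.

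Of the heparan sulfate core proteins and enzymes 10 of 18 passed. *Sdc1*, a cell surface heparan sulfate proteoglycan, rose by 2.50 at day 2 and by 2.96 at day 5 (adjusted p = 7.47e-13 and 3.72e-14), and *Hs6st2*, a heparan sulfate 6-O-sulfotransferase, fell by 0.96 and 1.25 (adjusted p = 8.24e-04 and 4.36e-05). Of the adaptors 4 of 7 passed, and of the 2 FGF binding proteins neither. Of 12 feedback and target genes 7 passed, 1 higher and 5 lower at day 2 and 1 higher and 4 lower at day 5. The largest change among them was that of *Etv1*, an ETS transcription factor, which fell by 1.23 and 0.94 (adjusted p = 9.73e-08 and 2.92e-06).

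**Figure D5:**
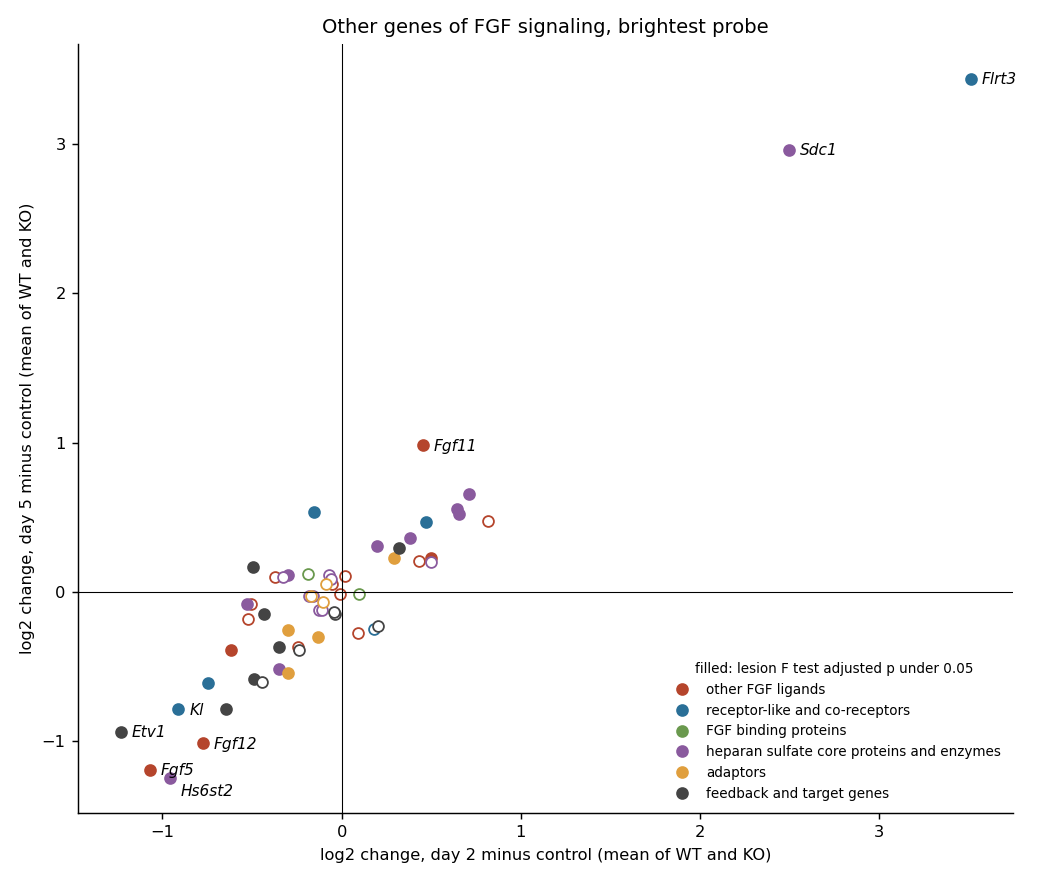
Log2 change at day 2 (horizontal) and at day 5 (vertical) of the 60 other genes of FGF signaling, as the mean of WT and KO mice, with filled circles for genes that passed the lesion test. *Flrt3* (3.51 and 3.44) and *Sdc1* (2.50 and 2.96) lie far from the rest.

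Markers of the cell types of the DRG moved with the lesion as well, on an array where 9.48% of all genes were higher and 12.7% lower at day 2, and 10.2% higher and 13% lower at day 5. Of the 8 markers of sensory neurons 5 were lower at day 2 and 6 at day 5 and none higher, and their summed linear intensity ran from 371270 to 420744 in controls, from 313049 to 382174 at day 2 and from 289881 to 362499.6 at day 5. Of 6 macrophage markers 4 were higher at day 2 and 6 at day 5, with sums from 996 to 1800 in controls, from 1413 to 2782 at day 2 and from 3009 to 4360 at day 5. Of 4 markers of dividing cells 2 were higher at both days. Of 6 satellite glia markers 2 were higher and 3 lower at day 2, and 3 higher and 1 lower at day 5. Of 6 Schwann cell, 5 fibroblast, 5 endothelial and 4 skeletal muscle markers at most 1 passed in each list. The summed muscle markers reached 9925 in 1 KO day 5 sample and 4451 in 1 KO day 2 sample, where the highest WT samples had 1701 in control and 538 after lesion. Their median at day 2 was 925 in KO and 191 in WT samples, so the higher signal was not confined to 1 KO day 2 sample. At day 5 the medians were 215 in KO and 345 in WT samples. All markers of neurons, satellite glia, macrophages, fibroblasts, endothelial and Schwann cells were well above background in all 24 samples. From day 2 to day 5 the median change of the neuronal markers went from -0.45 to -0.68 and that of the macrophage markers from 0.59 to 1.40. Of the members that fell, *Fgf13* went from -0.69 to -0.93, *Fgf1* from -0.36 to -0.52, *Fgfr1* from -0.45 to -0.40 and *Fgf9* from -1.15 to -0.61. Of those that rose, *Fgf2* went from 0.57 to 0.40 and *Fgf3* from a measured 4.22 to 4.65. The part of these shifts in the FGF results was not tested.

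Promoter windows of RefSeq in GRCm38.p6, 300 bases that span a start, were found for 8 of the 10 members, 12 windows in all. The letters TTACGTAA or TTATGTAA, which NFIL3 is known to bind, were searched on both strands and occurred in none of the 12, and in 1.06% of all 32851 windows. The letters TGANTCA, with any base at N, are a pattern that takes in AP-1 sites but is wider. They occurred in 1 of the 12 windows, 1 of the 4 of *Fgf13*, and in 7.81% of all windows. The absence of these letters from a window says nothing about binding elsewhere.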

How the data were processed

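The 24 RNA samples were run on 12 Agilent 4x44K arrays (3 slides), a different sample in each channel, with 2 samples per group and dye. The authors deposited the output of Agilent Feature Extraction 10.7.3.1, which per the file headers holds foreground and background intensity per spot and channel, not normalized, and flags. Here background was removed by the method of Edwards (mean foreground, median background) and the 24 channels were quantile normalized, as the study's methods state. Control spots and spots flagged as outliers were left out, and the spots of a probe were averaged. A probe was called well above background where at least 50% of its spots were flagged so. One mean per group was fitted to 41174 probes with limma 3.58.1 in R 4.3.3 (lmFit, eBayes), adjusted by Benjamini-Hochberg.

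Samples were grouped by title. The study's methods call the replicates independent, without saying whether each was 1 animal or a pool, so p-values measure the spread between these samples. Named are all members, *Nfil3* and *Atf3*, and the 8 pathway genes with the largest mean change among those that passed. Also named are *Fgf14*, added after its values were seen, and the 3 genes most correlated over samples with each of the 3 detected members of largest change. The members and lists were chosen with earlier results of these data known. *Fgf4* and *Cdc2a* were not found by name. The fit and the permutation test were tested on simulated data. The number of arrays limits the precision. Alternatives tried were no background correction, normexp (offset 50), processed signals, median foreground, loess, outliers kept, a filter on dim probes, averaged or any probes, dye, slide, array, array partner or replicate number in the model, an eBayes trend and each sample left out.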

Additional observations from a re-analysis of the deposited data

Results flagged for a closer look

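Dixon's ratio was computed in 150 groups of 4 samples, all 25 probes of the members in the 6 groups, and 3 exceeded the 95% critical value, where chance gives about 1 in 20. *Fgf9* in WT control replicate 4 had 7.85, where the nearest other WT control had 8.77. This sample shared its array with a lesioned sample and is the low control of *Fgfr1* as well, at 7.88. *Fgf1* in KO day 2 replicate 2 had 9.28 against 9.11 in the nearest sample. *Fgfr1* in KO control replicate 3 had 8.65 against 8.41 in the nearest sample.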

How the results depend on the processing

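Of 1290 comparisons of a called member change with its value under an alternative, 1241 kept the direction and the side of the threshold, 49 kept the direction and no longer passed, and 0 reversed. Among 507 counts of called members, 499 stayed within 1.5 times. The exceptions were the step from day 2 to day 5, called for 1 member and, on averaging all probes of each gene, for 0, and counts with 1 sample left out. These ran from 0 to 1 for that step (0 without WT day 2 replicate 1, WT day 5 replicate 1 or 3 or KO day 5 replicate 1), from 3 to 6 for KO day 2 (3 without KO day 2 replicate 1 or 4) and from 3 to 5 for KO day 5 (3 without KO control replicate 3). Samples left out were dropped after normalization. With the replicate number as a block 6 members passed the lesion test, as without it. Between samples of the same number the median correlation of deviations lay between -0.06 and 0.08 for the 4 numbers, and the numbers follow the dye. Single pairs ran from -0.59 to 0.59, so the medians do not show whether some samples were paired. With array as a random block the correlation within arrays was 0.27. *Fgf3* is limited by its signal, since its controls were under the background, and its measured change at day 2 ran from 1.38 to 5.24 over the alternatives, lowest with normexp, and 1.63 with no background correction. The cause of these shifts was not tested.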
